A study of Rattus norvegicus with 16 samples.

Results

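The 10 genes described here encode a cytokine signaling route from the cell surface to the nucleus. They were the receptor chains Il2rg and Il7r, the kinases Jak1 and Jak3, the transcription factors Stat3, Stat5a and Stat6, and the inhibitors Socs1, Socs3 and Cish. They were chosen by symbol, with earlier results of these data known, so counts among them are set beside the shares of all probes as a description. Each was found through the RefSeq transcript that its array probe was designed against, and they made up 10 of the 16678 genes that could be named on the array. Of the 45598 probes, 12 belonged to them, and where a gene had more than 1 probe the brightest one in each tissue is given first.

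Gene expression was measured in the lung and adipose tissue of male Brown Norway rats that were 7 weeks old when the injections began, with 1 array per rat and tissue and 16 arrays in all. The 5 HDM rats received 45 µg of house dust mite (HDM) under the skin with aluminum hydroxide as the adjuvant, weekly for 3 weeks, and then 120 µg of HDM through the nose, 3 times a week for 3 weeks. The 3 control rats received saline by the same routes, also with aluminum hydroxide, so the adjuvant was shared by all groups. Adipose tissue is named in the labels without a depot. All values are log2 signals relative to the 75th percentile of the array, so a value of 0 means a probe as bright as that percentile and a difference of 1 means a doubling. The brightness of 1 probe cannot be set against that of another, and levels are therefore compared only within a gene.

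The common gamma chain, encoded by Il2rg, is shared by the receptors for interleukins 2, 4, 7, 9, 15 and 21. It binds the kinase JAK3, while JAK1 binds the partner chain, and the pair phosphorylates STAT proteins, which enter the nucleus and switch on target genes. Among these targets are Cish, Socs1 and Socs3, whose products act back on the receptors and kinases as inhibitors. In allergic airways STAT6 is known for relaying the signals of interleukins 4 and 13.

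Cish and Socs1 are classic targets of STAT proteins. Of the promoters searched for the STAT motif TTCNNNGAA, only theirs held a match, and the stretches that hold it are shown for that reason. The motif reads the same on both strands, so 1 search covered both. Capitals mark each match. The sequences are those of RefSeq on GRCr8, on the + strand, at chr8:116850719-116850878 for Cish and chr10:5389324-5389406 for Socs1.
Cish: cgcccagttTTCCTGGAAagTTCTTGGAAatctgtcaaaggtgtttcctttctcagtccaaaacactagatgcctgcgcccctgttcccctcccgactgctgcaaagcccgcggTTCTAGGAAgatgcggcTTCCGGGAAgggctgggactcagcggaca
Socs1: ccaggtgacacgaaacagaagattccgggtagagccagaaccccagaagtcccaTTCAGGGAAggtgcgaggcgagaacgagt
In Cish the 4 matches began 241, 230, 136 and 119 bases before the start of the gene, and in Socs1 the 1 match began 196 bases before it. Promoters of 300 bases, from 250 before the start to 50 after it, were at hand for 8 of the 10 genes. The windows of Il2rg, Il7r, Stat3, Stat5a, Stat6 and Socs3 held no match. Of 33469 rat promoters of this length, 8.87% held at least 1 match and 0.00598% held 4 or more. A match is a string of letters in this window and was not tested as a binding site.

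**Figure D1:**
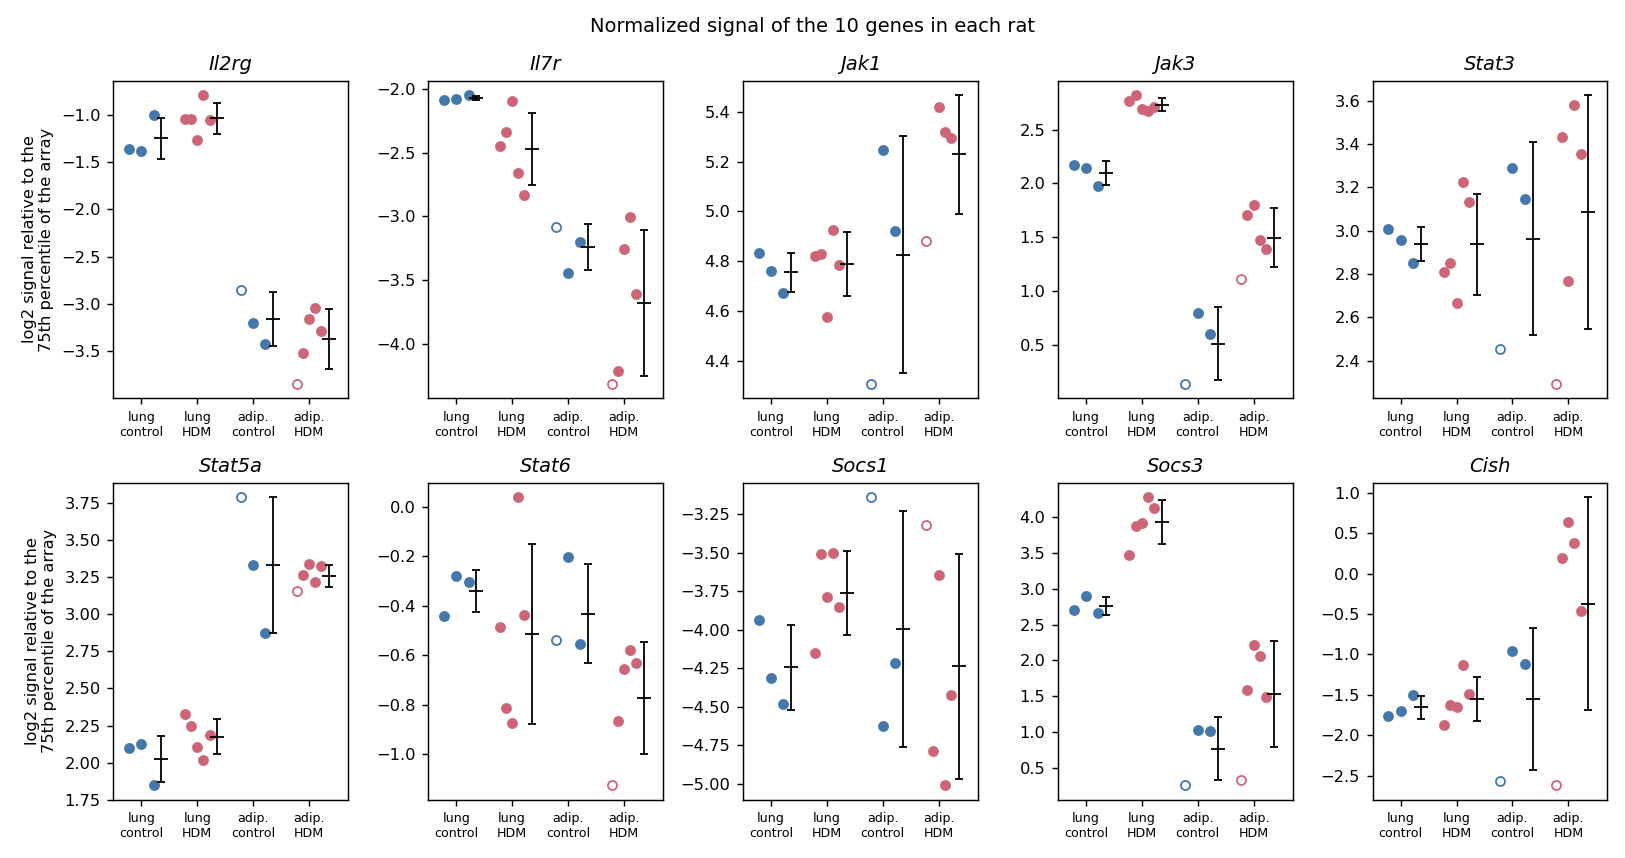
Each panel shows 1 gene, with the log2 signal relative to the 75th percentile of the array on the vertical axis (a separate scale per panel) and 1 point per rat. Blue points are the 3 control rats and red points the 5 HDM rats, bars are the mean ± SD of the group, and hollow points in adipose tissue are rat 1 of each group. Jak3 and Socs3 in the lung and Jak3 in adipose tissue were higher in every HDM rat than in any control rat.

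Before the results, the arrays themselves differed in a few ways. The 75th percentile ranged from 376 to 488 on the lung arrays and from 111 to 240 on the adipose arrays. Between 62.1% and 68.8% of lung probes and between 50.5% and 60.3% of adipose probes were well above background. Each tissue lay on a slide of its own. On both slides HDM rats 1 to 4 lay in row 1, and HDM rat 5 lay with the 3 control rats in row 2. Lung epithelium genes were bright in the lung (log2 of the summed signal of 6 genes between 10.3 and 10.6) and dim in adipose tissue (between 1.59 and 2.32), and adipocyte genes were bright in adipose tissue (between 9.38 and 10.4) and dimmer in the lung (between 0.488 and 3.45). In adipose tissue the arrays of 2 rats, HDM rat 1 and control rat 1, carried strong signal of genes of the epididymis, with a log2 sum over 7 genes of 11.6 and 12. The sum was 4.85 in control rat 3 and 1.96 in HDM rat 5, and between -2.01 and -0.74 in the other 4 rats. In the lung it was between -1.62 and -1.22. Adipose results of the 10 genes are therefore given with and without HDM rat 1 and control rat 1. Adipose values of the gene lists further below are from all rats unless stated.

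In the lung, Jak3 and Socs3 rose in HDM rats, by 1.56-fold and 2.27-fold. The other 8 genes did not pass the test. A gene was called where limma gave an adjusted p below 0.05 together with a fold change above 1.5, and 0.855% of all probes met this rule in the lung (0.482% higher and 0.373% lower in HDM rats). Among the brightest probes of all named genes it was 1.12%. At an unadjusted p below 0.05 there were 4 of the 10 (these 2, Il7r and Socs1), against 10.2% of probes. The groups did not overlap for Jak3, Socs3 and Il7r, against 9.61% of probes (4.65% higher and 4.97% lower in HDM rats). Over the 10 genes the median log2 fold change was 0.13, with 7 above 0 and 3 below, against a median of 0.00 over all probes. In bulk tissue, more or fewer cells of a type and more or less RNA per cell cannot be told apart.

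Of the receptor chains, Il2rg (chrX:70435340-70439052 on GRCr8, like all gene positions here) had lung values of -1.36, -1.38 and -1.01 in control rats 1 to 3 and of -1.04, -1.04, -1.26, -0.79 and -1.05 in HDM rats 1 to 5. The groups overlapped, since control rat 3 was higher than 4 of the 5 HDM rats. Its log2 fold change was 0.21 (SE 0.14, adjusted p = 0.760).

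Il7r (chr2:60179561-60204937), the chain that pairs with the common gamma chain to bind interleukin 7, had lung values of -2.08, -2.08 and -2.05 in control rats and of -2.44, -2.34, -2.10, -2.66 and -2.83 in HDM rats. Every HDM rat was below every control rat, but HDM rat 3 only just. The log2 fold change was -0.40 (SE 0.17, 95% interval -0.79 to -0.01), with an adjusted p of 0.471 and an exact permutation p of 0.0536. The difference did not pass the test.

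Of the kinases, Jak3 (chr16:18418807-18432515), which binds the common gamma chain and is found mainly in blood cells, had lung values of 2.17, 2.15 and 1.97 in control rats. In HDM rats they were 2.77, 2.82, 2.70, 2.67 and 2.71. All 5 HDM rats lay above all 3 control rats, and their spread was narrow. The mean was 2.73 ± 0.06 (SD, n = 5) against 2.10 ± 0.11 (SD, n = 3). This was a log2 fold change of 0.64 (SE 0.10, 95% interval 0.41 to 0.86, adjusted p = 0.0332). The exact permutation test gave p = 0.0179, the smallest value that the 56 splits of 5 and 3 rats can give (two-sided, as for all exact tests here). Within row 2 of the slide HDM rat 5 exceeded the mean of the control rats by 0.61, about as much as the whole group did. Row 1 held HDM rats only. The fold change stood close to the threshold of 1.5.

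Jak1 (chr5:120895606-121004207), the kinase that many cytokine receptors share, had lung values between 4.67 and 4.83 in control rats and between 4.58 and 4.93 in HDM rats. Its groups overlapped fully. Its log2 fold change was 0.03 (SE 0.11, 95% interval -0.22 to 0.29), and its second probe gave 0.12.

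Of the transcription factors, Stat3 (chr10:86311528-86363513), which relays signals of the interleukin-6 family, had lung values of 3.01, 2.96 and 2.85 in control rats and of 2.81, 2.85, 2.67, 3.22 and 3.13 in HDM rats. The control rats lay inside the range of the HDM rats. For Stat3 the log2 fold change was -0.00 (95% interval -0.35 to 0.35). Stat5a (chr10:86285859-86310187), a main STAT of interleukins 2 and 7, had values of 2.10, 2.12 and 1.85 in control rats and of 2.32, 2.25, 2.10, 2.02 and 2.19 in HDM rats. The groups overlapped, and the log2 fold change was 0.15 (SE 0.12, adjusted p = 0.821). Stat6 (chr7:65365505-65382825) had values of -0.44, -0.28 and -0.30 in control rats and of -0.49, -0.81, -0.88, 0.04 and -0.44 in HDM rats. HDM rat 4 lay above all control rats, HDM rat 5 level with the lowest of them and the other HDM rats below. For Stat6 the log2 fold change was -0.17 (SE 0.21, adjusted p = 0.923), so no difference in the Stat6 transcript was detectable with these arrays.

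Of the inhibitors, Socs3 (chr10:103692579-103695975), which binds the receptors of the interleukin-6 family and of granulocyte colony-stimulating factor and blocks the kinases there, had lung values of 2.71, 2.90 and 2.66 in control rats. In HDM rats they were 3.47, 3.89, 3.93, 4.28 and 4.14. All HDM rats lay above all control rats, with HDM rat 1 closest to them. The mean was 3.94 ± 0.31 (SD, n = 5) against 2.76 ± 0.13 (SD, n = 3). The means differed by a log2 fold change of 1.18 (SE 0.19, 95% interval 0.75 to 1.61, adjusted p = 0.0369, exact permutation p = 0.0179). Within row 2 of the slide the difference was 1.38.

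Socs3 was read by a pair of probes. The one above stood on the array 10 times, and the other once. The sequence of the other probe is shown because it places this second reading at the end of the coding sequence. Read in frame from its first base it gives 20 codons, and capitals mark the only stop codon, the last.
Socs3 second probe: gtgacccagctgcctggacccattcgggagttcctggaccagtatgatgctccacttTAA
On this probe the lung values were -2.08, -1.89 and -2.27 in control rats and -1.60, -1.29, -1.28, -0.74 and -0.996 in HDM rats. The groups were again apart, in the same direction. On this probe the log2 fold change was 0.90 (SE 0.20), and with an adjusted p of 0.111 it did not pass the test. With both probes averaged, Jak3 was the only gene of the 10 that was called in the lung.

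Socs1 (chr10:5389574-5391265), the inhibitor best known for interferon and interleukin 4 signaling, was dim in the lung, with values of -3.94, -4.32 and -4.48 in control rats and of -4.15, -3.51, -3.79, -3.50 and -3.85 in HDM rats. Of the HDM rats, 4 lay above all control rats and HDM rat 1 did not. For Socs1 the log2 fold change was 0.48 (SE 0.19, 95% interval 0.04 to 0.93), with an adjusted p of 0.438. Cish (chr8:116850969-116855917), the STAT5 target whose promoter is shown above, had lung values of -1.76, -1.70 and -1.49 in control rats and of -1.87, -1.63, -1.65, -1.13 and -1.48 in HDM rats. The groups overlapped. For Cish the log2 fold change was 0.10 (SE 0.17, 95% interval -0.30 to 0.50, adjusted p = 0.966).

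**Figure D2:**
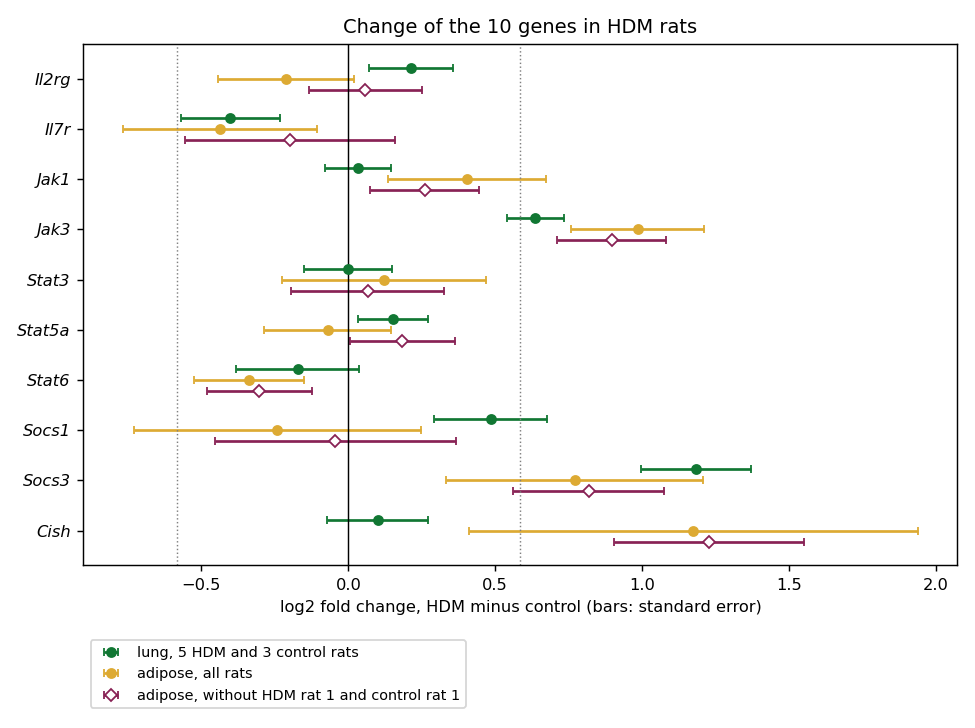
The horizontal axis gives the log2 fold change of HDM over control rats for each of the 10 genes, with bars for the standard error and dotted lines at a fold change of 1.5 in either direction. Green points are the lung, yellow points adipose tissue with all rats and purple diamonds adipose tissue without HDM rat 1 and control rat 1. Jak3 and Socs3 lay above 0 in both tissues, Cish only in adipose tissue by more than its standard error, and the bar of Cish narrowed from 0.76 to 0.32 without the pair of rats.

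In adipose tissue none of the 10 genes passed the test, and 0% of all probes did. At an unadjusted p below 0.05 limma counted 1 of the 10, Jak3, against 9.9% of all probes, and the methods' t-test counted 1 as well. Of the 10 genes, 5 had a higher mean and 5 a lower mean in HDM rats. Their median log2 fold change was 0.03, against -0.15 over all probes. The groups did not overlap for Jak3 and Stat6, against 6.26% of probes.

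Jak3 had adipose values of 0.14, 0.79 and 0.60 in control rats and of 1.11, 1.71, 1.80, 1.47 and 1.39 in HDM rats. All HDM rats were above all control rats, a pattern that 1.54% of probes showed in this direction. In both groups rat 1 was the lowest. The log2 fold change was 0.99 (SE 0.23, 95% interval 0.46 to 1.51), or 1.98-fold (adjusted p = 0.289, exact permutation p = 0.0179). Without rat 1 of each group it was 0.90 (SE 0.18, adjusted p = 0.472), and within row 2 of the slide 0.88. When all 16 arrays were fitted together, with a random block for each rat, Jak3 was called in adipose tissue (adjusted p = 0.0383), as were 106 of all 45598 probes.

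Socs3 had adipose values of 0.25, 1.02 and 1.01 in control rats and of 0.32, 1.58, 2.21, 2.06 and 1.49 in HDM rats. The groups overlapped through HDM rat 1 alone. The log2 fold change was 0.77 (SE 0.44, 95% interval -0.24 to 1.78, adjusted p = 0.621). Without rat 1 of each group, the 4 HDM rats lay above both control rats and the log2 fold change was 0.82 (SE 0.26, adjusted p = 0.629).

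Cish had the widest spread of the 10 genes. Its adipose values were -2.56, -0.96 and -1.12 in control rats and -2.62, 0.20, 0.63, 0.38 and -0.46 in HDM rats. Rat 1 of either group stood far below its group, while the other HDM rats were all above the other control rats. With all rats the log2 fold change was 1.17 (SE 0.76, 95% interval -0.59 to 2.94, adjusted p = 0.681). Without rat 1 of each group it was 1.23 (SE 0.32), or 2.34-fold (adjusted p = 0.559), and the exact permutation p was 0.0667, the smallest that 15 splits can give. Among all probes, 5.71% were likewise higher in each of the 4 HDM rats than in both control rats. The low Cish values and the epididymis signal thus came from the same pair of arrays, and the part of that signal in the spread was not tested.

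**Figure D3:**
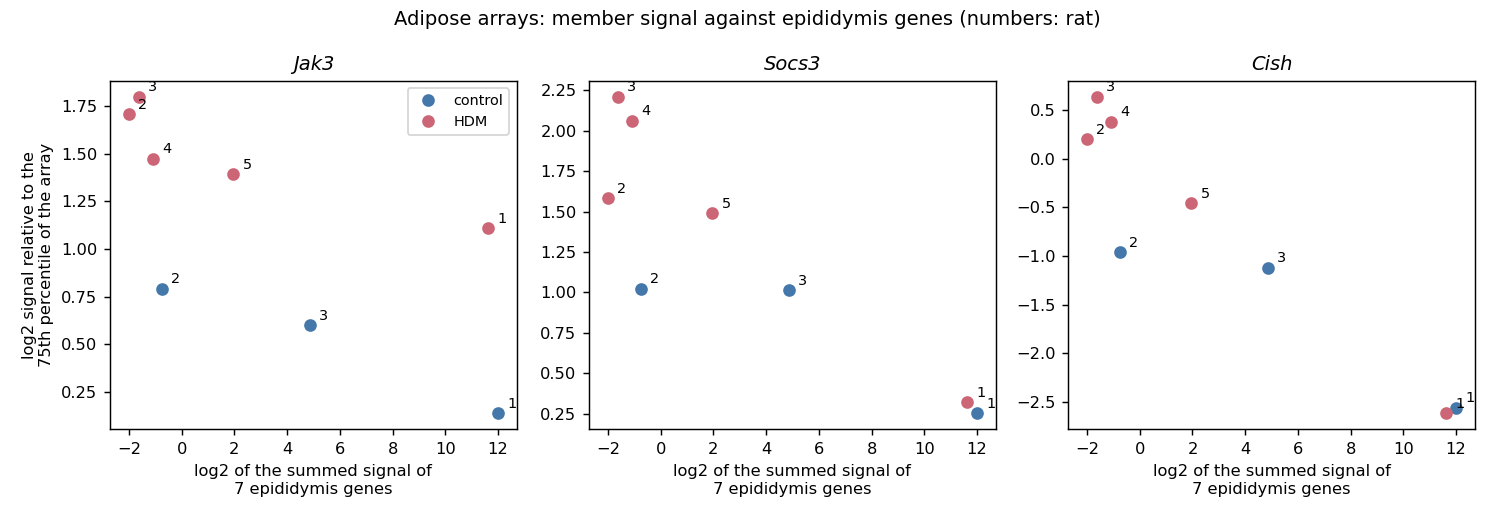
Each panel shows the log2 signal of 1 gene in adipose tissue, relative to the 75th percentile of the array, against the log2 of the summed signal of 7 epididymis genes on the same array. Points are single rats with their number, blue for control and red for HDM. HDM rat 1 and control rat 1, at sums of 11.6 and 12, had the lowest Socs3 and Cish values, and for Jak3 each was the lowest of its group.

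Of the other genes, Stat6 had adipose values of -0.54, -0.20 and -0.56 in control rats and of -1.13, -0.87, -0.66, -0.58 and -0.63 in HDM rats. Every HDM rat was below every control rat, by a narrow margin. The log2 fold change was -0.34 (SE 0.19, adjusted p = 0.611, exact permutation p = 0.0714). In all, 4.72% of all probes were lower in HDM rats without overlap. Il2rg (log2 fold change -0.21), Il7r (-0.44) and Socs1 (-0.24) were dim in adipose tissue. They were well above background on 7, 6 and 3 of the 8 arrays, and the other values lay at background. Jak1 (0.40, with the outlier spot of HDM rat 2 left out), Stat3 (0.12) and Stat5a (-0.07) had overlapping groups. Without rat 1 of each group the log2 fold change was -0.30 for Stat6, 0.06 for Il2rg, -0.20 for Il7r and -0.04 for Socs1. For Jak1 it was 0.26, for Stat3 0.07 and for Stat5a 0.18.

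Whether the tissues changed unequally was read from the difference between both arrays of each rat. None of the 10 genes passed an adjusted p below 0.05 in limma, against 0.00219% of probes, and 0 had an unadjusted p below 0.05, in limma or in the methods' t-test. The log2 difference of the changes, lung minus adipose, was -1.07 for Cish (95% interval -2.67 to 0.52), -0.35 for Jak3 (-0.95 to 0.25) and 0.41 for Socs3 (-0.40 to 1.23). These intervals are wide, and the test does not show that the tissues responded alike.

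In control rats the levels in lung and adipose tissue differed for 5 of the 10 genes, against 44.3% of all probes (12% higher in the lung and 32.2% lower). Il2rg was higher in the lung by 1.91 on the log2 scale (SE 0.23, 3.76-fold, adjusted p = 0.000710). Il7r was higher by 1.17 (2.25-fold, adjusted p = 0.0161), Jak3 by 1.59 (3.00-fold, adjusted p = 0.000969) and Socs3 by 1.99 (3.98-fold, adjusted p = 0.00138). For each of these 4 genes the lung was higher in 8 of 8 rats. Stat5a was the opposite, with a level 2.47-fold higher in adipose tissue (adjusted p = 0.00113) in 8 of 8 rats. The tissues lay on separate slides and were scaled separately, and the median of all probes was -0.58 in this comparison, so these values are relative to each tissue's own scale. Under quantile normalization the median of all probes was 0.79 and 8 genes were higher in the lung (Il2rg, Il7r, Jak1, Jak3, Socs1, Socs3, Stat3 and Stat6), without Stat5a, as 22522 of all 45598 probes were called. A simple paired test on the lung minus adipose differences of the control rats called 0 of all probes, with 5 of the 10 genes at an unadjusted p under 0.05. That test takes the spread of each probe from these few differences alone, so its count of 0 does not show that the tissues were alike.

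**Figure D4:**
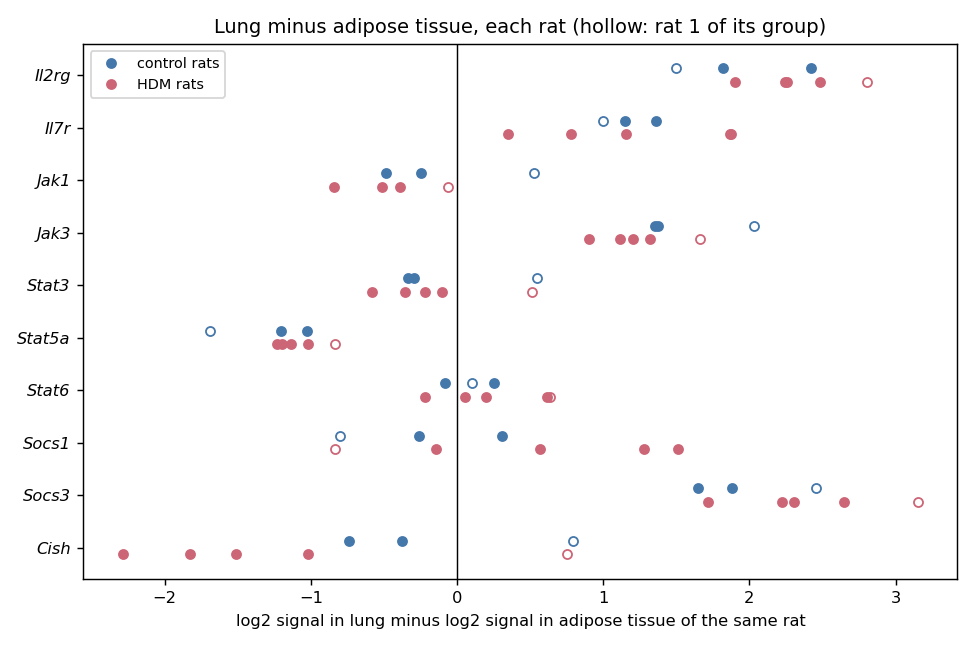
The horizontal axis gives the log2 signal in the lung minus that in adipose tissue of the same rat for each of the 10 genes, each tissue relative to its own 75th percentile. Blue points are control rats, red points HDM rats, and hollow points rat 1 of each group, with 1 HDM rat missing for Jak1. All points lay above 0 for Il2rg, Il7r, Jak3 and Socs3 and below 0 for Stat5a.

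By group, the order of the levels was the same for Jak3 and Socs3, from the adipose tissue of control rats through the adipose tissue of HDM rats and the lung of control rats to the lung of HDM rats. For Jak3 the group means were 0.51, 1.49, 2.10 and 2.73, and for Socs3 0.76, 1.53, 2.76 and 3.94. The tissues lay on separate slides and were scaled separately, so the order across tissues is relative to each tissue's own scale. In the lung all HDM rats lay above all control rats for both genes, as for 4.65% of probes. In adipose tissue this held for Jak3 but not for Socs3, against 1.54% of probes. Between HDM and control rats only the lung groups passed the test, and the step from HDM adipose tissue to control lung was not tested.

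The rest of the pathway was read from lists of genes, chosen with earlier results of these data known. None of the 14 genes of a list of STAT targets passed the test in either tissue. In the lung, Bcl2l1, which encodes a protein that protects cells from death, had a log2 fold change of -1.06 (adjusted p = 0.0691), with every HDM rat below every control rat. Bcl3, a target of STAT3, was higher in every HDM rat than in any control rat in both tissues. This held for 4.65% of probes in the lung and 1.54% in adipose tissue. Of the 14 genes, 3 were higher and 1 lower without overlap in the lung, and 1 was higher in adipose tissue. The log2 fold change of Bcl3 was 0.46 in the lung (adjusted p = 0.263). In adipose tissue it was 1.10 (adjusted p = 0.358), or 0.76 without control rat 1. The median of the list was 0.09 in the lung and -0.08 in adipose tissue.

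No gene passed the test in either tissue among the other JAK kinases (2 genes), the other STAT factors (4), the other SOCS proteins (4), the cytokines of the common gamma chain (6), the chains that pair with it (5), the type 2 cytokines and receptor chains without it (7) and the further inhibitors of the pathway (9). The largest lung values were 0.20 for Jak2, 0.31 for Stat5b, -0.18 for Socs2, 0.75 for Il4, 0.34 for Il21r, 0.29 for Il5 and 0.42 for Ptprc, a phosphatase of all white blood cells. In adipose tissue they were 0.22 for Tyk2, 0.19 for Stat2, 0.42 for Socs4, 0.34 for Il15, -0.09 for Il2rb, 0.23 for Il13ra1 and 0.71 for Pias1. These are the largest among the genes well above background on all 8 arrays of the tissue. The value of Pias1, an inhibitor of STAT factors, rested on HDM rat 2, at 1.28 against -3.72 to -2.72 in the other HDM rats and -3.15 to -2.80 in control rats, and the difference without that rat, computed after seeing the data, was -0.20. Il2rb was likewise at -0.33 in HDM rat 2 against -2.66 to -1.97 in the other HDM rats, and its difference without that rat was -0.50. The adipose array of HDM rat 2 had 1224 outlier spots, against 355 to 444 on the other adipose arrays. Without control rat 1 the difference was -0.0197 for Il13ra1, 0.020 for Stat2, 0.060 for Tyk2 and 0.067 for Il15. It was 0.047 for Il2rb, 0.31 for Socs4 and 0.65 for Pias1.

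In the interleukin-6 family list 1 of 11 genes passed the test in the lung and none in adipose tissue. Csf3r, the receptor of granulocyte colony-stimulating factor and a gene of neutrophils, rose with a log2 fold change of 2.18 (SE 0.15, adjusted p = 0.000750). In adipose tissue its log2 fold change was 2.16, not called, and it was not well above background on every array. Il6st, the signaling chain shared by the family, had 0.40 in the lung (adjusted p = 0.288) and 0.56 in adipose tissue (adjusted p = 0.575). Il6 itself was well above background on no lung array.

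Markers of blood cells were read beside these values. In the lung, 4 of 6 neutrophil genes were called higher, against 0.482% of all probes. These were Cxcr2 (log2 fold change 2.46), Mmp8 (3.95), S100a8 (4.46) and S100a9 (4.09). None was called lower, and Fpr1, a receptor for formyl peptides on neutrophils, had a log2 fold change of -0.66 (adjusted p = 0.0877) with every HDM rat below every control rat. The log2 of their summed signal was between 7.06 and 8.13 in HDM rats and between 4.02 and 4.40 in control rats. In adipose tissue it was between 2.92 and 3.82 against 1.61 to 2.41, and no gene of the list was called. There 5 of the 6 genes had a higher mean in HDM rats, with S100a9 at 3.83, and Fpr1 had -0.17. Of the 6, 2 were higher in HDM rats without overlap, against 1.54% of probes. The neutrophil sum was thus higher in every HDM rat than in any control rat in both tissues, as Jak3 was in both and Socs3 in the lung. In the lung this also held for the sums of the eosinophil and mast cell, macrophage, B cell and interleukin-6 family genes. The sum of the genes induced by glucocorticoids was apart in both tissues in the other direction. The part of any of these sums in the values of Jak3 and Socs3 was not tested. Of the T cell genes, none of 10 was called in either tissue, and their summed signal was between 3.83 and 4.13 in HDM lungs against 3.90 to 4.01 in control lungs, and between 1.33 and 2.17 against 1.63 to 2.21 in adipose tissue. Cd8a, a coreceptor of cytotoxic T cells, had a log2 fold change of 0.54 (adjusted p = 0.102) in the lung, with every HDM rat above every control rat. In adipose tissue it was -2.05 (adjusted p = 0.343), with every HDM rat below every control rat and the probe well above background on 2 of 5 HDM arrays and 3 of 3 control arrays.

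No gene was called in either tissue among B cell (4 genes), NK cell (6), eosinophil and mast cell (6), macrophage (6), lung epithelium (6), adipocyte (6) and epididymis markers (7), nor among the immediate early genes (8). All 8 immediate early genes had a higher mean in HDM lungs, with a log2 fold change of 1.92 for Fos, but their summed signal overlapped between the groups. Among the eosinophil and mast cell genes Ccr3 had the largest lung value, 1.56. In the lung the sum of the eosinophil and mast cell genes was between 2.45 and 3.22 in HDM rats and between 1.92 and 2.20 in control rats, and that of the macrophage genes between 3.39 and 3.64 against 3.18 to 3.33. The sum of the B cell genes was between 2.35 and 2.67 in HDM rats against 2.16 to 2.30, with Cd79b, a chain of the B cell receptor, at a log2 fold change of 0.56 (adjusted p = 0.0715). Of 7 genes induced by glucocorticoids, 4 were called lower in the lung, against 0.373% of all probes. These were Fkbp5 (-2.78), Klf9 (-1.25), Per1 (-2.003) and Zbtb16 (-4.70). By mean, 5 of the 7 were lower in HDM lungs and 2 higher, with Dusp1 at 0.39. None was called in adipose tissue, where 0% of all probes were, but all 7 had a lower mean in HDM rats there, with Zbtb16 at -2.54. Their summed signal was between 4.44 and 5.20 in HDM lungs against 6.61 to 6.76 in control lungs. In adipose tissue it was between 5.16 and 5.55 against 6.43 to 7.01.

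Over the 8 lung arrays, the genes whose values ran most closely with those of Jak3, out of 11911 genes well above background, were C1h16orf54 (Pearson r = 0.995), Thra (0.994), Irak3 (0.9895), Clec4d (0.989) and Strada (0.987). Of these, C1h16orf54 and Clec4d were called higher in HDM rats. For Socs3 they were Them6 (0.986), Ptpn4 (0.985), Tbrg4 (0.981), Sema4a (0.976) and Syt17 (0.974), none of them called. For Cish they were Npepl1 (0.973), Pex10 (0.971), Vps16 (0.971), Paxip1 (0.969) and Gpkow (0.969). The arrays share their slide and their scaling, and these values are a description.

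The calls of Jak3 and Socs3 in the lung sat near the threshold. Jak3 was called in 11 of 24 other ways of processing the data, with log2 fold changes between 0.57 and 0.69. Socs3 was called in 9 of 24, with log2 fold changes between 1.00 and 1.38. With 1 rat left out at a time each was called in 1 of 8 fits, Jak3 without HDM rat 3 and Socs3 without HDM rat 1. Both stayed above 0 in every one of these fits.

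**Figure D5:**
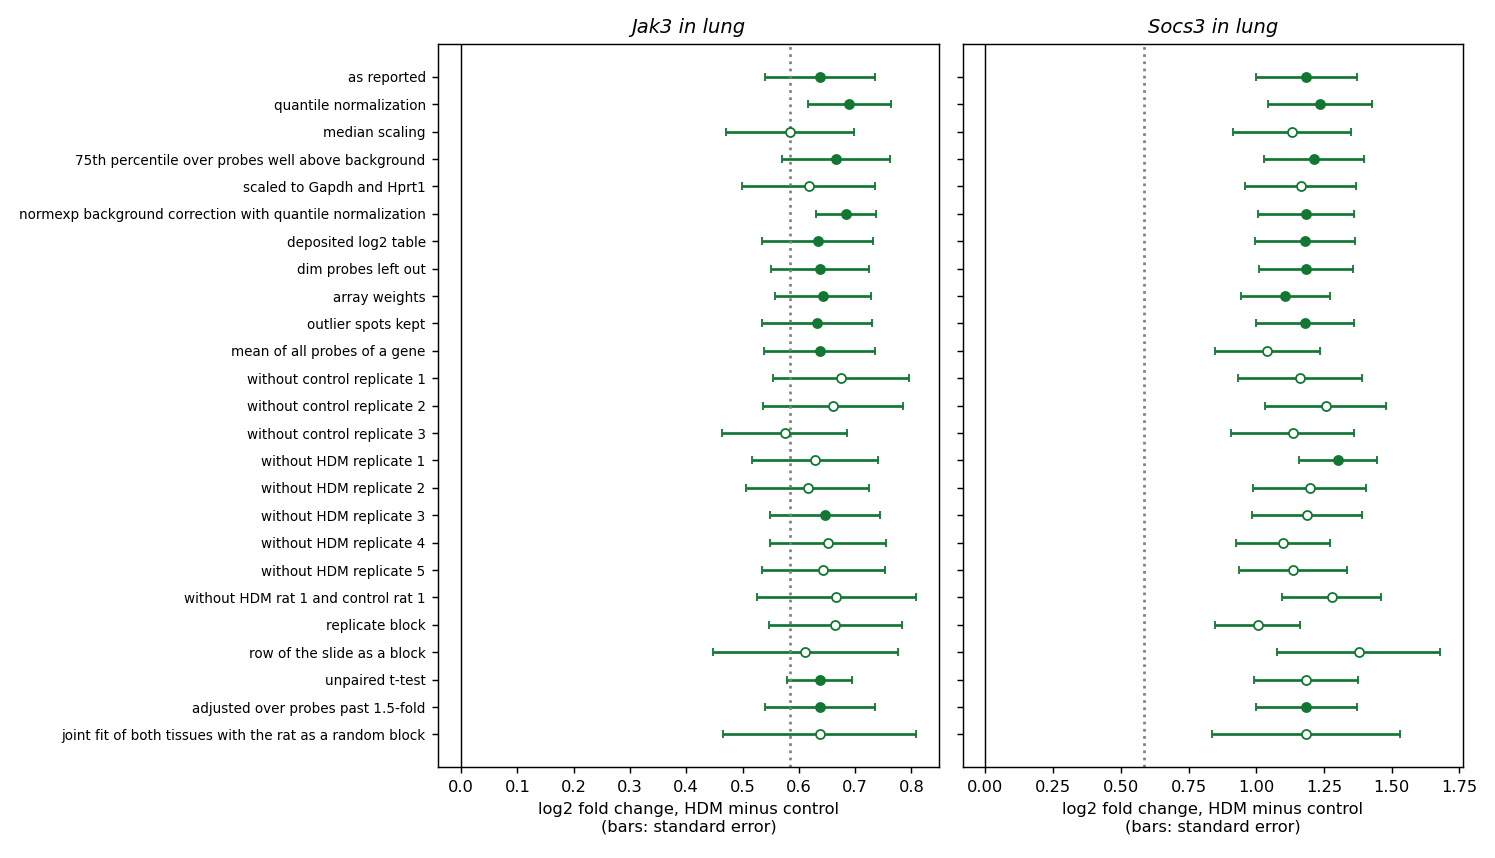
The panels show Jak3 and Socs3 in the lung, with the log2 fold change of HDM over control rats on the horizontal axis and 1 line per way of processing the data, the first as reported. Bars are standard errors, the dotted line marks a fold change of 1.5, and filled points were called. The values varied between 0.57 and 0.69 for Jak3 and between 1.00 and 1.38 for Socs3, while the calls came and went.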

How the data were processed

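RNA from the lung and adipose tissue of each rat was labeled with Cy3 (50 ng per sample) and hybridized to 1-color Agilent rat arrays. Per the file headers, the authors deposited linear spot intensity values as Agilent Feature Extraction 12.0.3.1 gave them, with the background subtracted and no normalization between arrays. The authors also deposited a table of normalized log2 values made in GeneSpring, whose steps are not given in the sources used here. After a shift to the 75th percentile and centering on the median of each probe, 99.91% of its cells lay within 0.1 of the intensities on the log2 scale, and 39 cells held no number. The samples were mapped by their labels, and 0 columns were left unused.

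From the intensities, control probes and outlier spots were removed, repeated spots were averaged as log2 values, and each array was set relative to its 75th percentile, with no filter on dim probes. Groups were compared within a tissue with limma 3.58.1 (lmFit, then eBayes) under R 4.3.3 (packages jsonlite 2.0.0 and data.table version 1.17.8), adjusted by Benjamini–Hochberg over all 45598 probes. Sequences and figures were handled with Python 3.11.15, pandas 2.3.3, Biopython 1.88 and matplotlib 3.10.9. The methods' t-test, unpaired, served as an alternative for HDM against control rats. Between the tissues of control rats a simple paired test took its place. The fits were tested on simulated data. Precision is limited by how many arrays there are.

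Of 45598 probes, 21229 were named through 47357 RefSeq genes of GRCr8. The 10 genes and the 20 lists of pathway and marker genes were chosen with earlier results of these data known. Of the 142 genes on the lists, 133 matched. Genes named from the lists were those called and, for the pathway lists, the largest change per list and tissue among genes well above background on all arrays. For the marker lists and the immediate early genes this largest change is given only in part. Bcl3 in the lung, Il6st in the lung, Csf3r in adipose tissue, Dusp1, Il6, Fpr1, Cd8a and Cd79b were named after their values were seen. The alternatives covered the test, the adjustment, normalization, background, dim probes, outlier spots, array weights, probes per gene, rats left out, blocks and a joint fit. Same-numbered HDM and control rats did not deviate together in the lung (r between -0.06 and 0.01), and in adipose tissue r was 0.72, 0.23 and 0.10 for numbers 1 to 3, with the first pair carrying the epididymis signal, so the numbers were not taken to pair the rats.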

Additional observations from a re-analysis of the deposited data

How the results depend on the processing

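In the lung 2 of the 10 genes were called, and 390 of all 45598 probes. The count was 0 with median scaling (367 of all probes), with scaling to Gapdh and Hprt1 (342), without HDM rat 1 and control rat 1 (41), with slide row as a block (25) and in the joint fit of both tissues (166). It was 1 with the mean of all probes of a gene (338 genes or unnamed probes) and with the methods' t-test (341; Jak3 in both), and between 0 and 1 with 1 rat left out (100 to 333). In adipose tissue the joint fit gave 1 (Jak3) in place of 0, and 106 of all probes in place of 0. In control rats 8 genes differed between the tissues under quantile normalization (22522 of all probes), in place of 5 (20183). The count was 0 in the simple paired test (0 of all probes) and between 4 and 5 with 1 rat left out. The cause was not tested.

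With the replicate number as a block (replicate block), 0 of the 10 genes and 0 of all 45598 probes were called in the lung, with 2 of the 10 at an unadjusted p under 0.05. The numbers were not taken to pair the rats, but the few rats cannot settle this, so the setting stays among the alternatives. Under this block Jak1 (-0.0132) and Cish (-0.0629) in the lung and Stat3 (-0.13) and Socs1 (0.0783) in adipose tissue changed sign.

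Jak3, Socs3, Il7r and Stat6 kept their sign in both tissues under every alternative, as did Il2rg, Stat5a and Socs1 in the lung and Cish in adipose tissue. The genes that changed sign were not called. In the lung these were Stat3 (0.0551 with quantile normalization, 0.0282 with the percentile over probes above background, 0.0654 without HDM rat 1 and control rat 1, 0.197 with the row as a block) and Jak1 (-0.0200 with median scaling). In adipose tissue Il2rg was 0.0480 with quantile normalization, 0.0828 with median scaling, 0.0127 with normexp, 0.00424 with array weights and 0.0580 without HDM rat 1 and control rat 1. Socs1 was 0.230, 0.0527 and 0.0316 in the first 3 of these, Stat5a was 0.22 with median scaling, 0.0923 with array weights and 0.18 without the pair of rats, Stat3 was -0.0112 with normexp, and Jak1 was -0.0458 with the mean of all probes. With 1 rat left out, the lung values ranged from -0.0720 to 0.0673 for Stat3, from -0.00879 to 0.0851 for Jak1 and from -0.00489 to 0.178 for Cish, and the adipose values from -0.13 to 0.32 for Stat3, from -0.56 to 0.19 for Socs1 and from -0.30 to 0.16 for Stat5a.

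Between the tissues of control rats, the sign of Jak1, Stat3, Socs1 and Cish, which were not called, changed under 8, 7, 7 and 7 of 21 alternatives. Median scaling moved the median of all adipose probes from -0.15 to 0.14. Lower signal limits the adipose values of Il2rg, Il7r and Socs1.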
